A study of Mus musculus with 59 samples.

Results

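The genes described here are 10 genes of the neuronal cytoskeleton and of axon growth, Nefl, Nefm, Nefh, Ina, Prph, Tubb3, Mapt, Map2, Stmn2 and Gap43, taken by their symbols from the 19613 genes measured in the series. All 10 were found, Map2 under its older symbol Mtap2, and no filter on low values was applied. The series measured embryoid bodies with spinal motor neurons, grown from HBG3 mouse embryonic stem cells, which carry an eGFP reporter of the motor neuron gene HB9, with retinoic acid and a Hedgehog agonist. These indicator cells were exposed for 24 h to serum of male mice, either SOD1 carriers, hemizygous for the human SOD1 (G93A) transgene, which is a model of ALS before its symptoms, or their non-carrier littermates without the transgene, both on the mixed C57BL/6 and SJL background. There were 29 arrays with carrier and 30 with non-carrier serum, none of them from untreated cells. The labels give 9 weeks for 53 arrays and 10 weeks for 6, worded as a time point of cultures, which was read as the age of the serum donors from the ages in the methods of the study. All embryoid bodies came from 1 stem cell line, so the genes report on cells that met the serum and not on tissue of the mice. P-values measure only the spread between these arrays. The labels do not say whether each serum was used once, and by the methods several assays shared a batch of embryoid bodies.

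Neurofilaments are the intermediate filaments of neurons, built from the light, medium and heavy subunits (Nefl, Nefm, Nefh) with alpha-internexin (Ina), which appears early in development, and peripherin (Prph), which is found in neurons that send axons out of the central nervous system, motor neurons among them. Tubb3 encodes the beta-tubulin isotype that marks newly formed neurons. Mapt (tau) and Map2 bind and stabilise microtubules, mainly in axons and in dendrites respectively. Stmn2 (SCG10), a tubulin-binding protein of growing axons, and Gap43, a growth cone protein, are made while axons extend and after nerve injury. Tubb3, Map2, Stmn2, Gap43 and Ina come on as progenitors leave the cell cycle, and Nefh is made late, as axons mature. Motor neurons are rich in neurofilaments, and neurofilament light chain released into body fluids is a marker of axon damage in ALS.

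On the mouse assembly GRCm38.p6, RefSeq places Nefl at chr14:68083863-68089095 and Nefm beside it at chr14:68119545-68125004. Nefh lies at chr11:4938754-4948064, Ina at chr19:47014681-47025327 and Prph at chr15:99053579-99058978. Tubb3 lies at chr8:123411553-123422015, Mapt at chr11:104229409-104332090, Map2 at chr1:66175202-66442583, Stmn2 at chr3:8509527-8561604 and Gap43 at chr16:42248552-42340651. The deposited value of a gene is a mean over its exons, so isoforms such as those of Map2 and Mapt were not told apart. Promoter sequences were at hand for 4 of the 10 genes. Those of Tubb3, Map2 and Ina are shown, whereas the window of Prph held no base before the first annotated base of the gene. Each is the plus strand read 5′ to 3′ and ends at the base before the first annotated base of the gene, at chr8:123411303-123411552 for Tubb3 (250 bases), chr1:66175079-66175201 for Map2 (fewer bases, because the gene starts earlier in the RefSeq window) and chr19:47014431-47014680 for Ina (250 bases). Capitals mark the E box CANNTG, the site of basic helix-loop-helix factors, the GC box GGGCGG, the site of SP1, and the TATA box core TATAA, each searched on both strands.
Tubb3: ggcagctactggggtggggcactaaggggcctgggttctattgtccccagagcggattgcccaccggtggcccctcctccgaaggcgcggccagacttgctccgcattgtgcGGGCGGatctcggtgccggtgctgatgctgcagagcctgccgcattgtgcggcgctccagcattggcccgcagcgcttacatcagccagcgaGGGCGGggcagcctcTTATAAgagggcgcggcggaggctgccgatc
Map2: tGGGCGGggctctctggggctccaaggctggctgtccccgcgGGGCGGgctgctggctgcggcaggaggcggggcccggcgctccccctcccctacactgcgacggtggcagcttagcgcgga
Ina: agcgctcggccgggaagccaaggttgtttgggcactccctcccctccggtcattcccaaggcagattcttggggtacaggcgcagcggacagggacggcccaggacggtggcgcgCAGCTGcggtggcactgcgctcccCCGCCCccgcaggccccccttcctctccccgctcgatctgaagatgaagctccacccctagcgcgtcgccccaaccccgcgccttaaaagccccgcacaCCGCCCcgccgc
The Tubb3 and Ina sequences hold 2 GC boxes each, and the shorter Map2 sequence also holds 2. A GC box was found in 32.7% of 32851 promoter sequences of 250 bases and in 13.2% of those cut to the length of the Map2 sequence. The E box was found once, in Ina, and in 66.2% of all promoter sequences of 250 bases. A TATA box core was found in Tubb3, where its matches on both strands overlap, and in 22.8% of all promoters of that length. The bases before the start were between 68.0% and 77.2% G or C in the 3 genes.

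The labels name no batch. Runs were formed from the array titles, by a shared name or by consecutive numbers, giving 9 runs of 4 to 11 arrays, each with both kinds of serum. One run is titled motorneuron (7 arrays) and another HB9MNs (4 arrays), the letters A to F stand for the numbered blocks in ascending order (6, 6, 11, 7, 6 and 6 arrays, C being larger than the batches of the methods, so that it may hold more than 1), and the 6 arrays of 10-week donors form the 10-week run, in which age and run cannot be told apart. Array medians lay between 151 and 183 on the linear intensity scale. Within runs the average Pearson's r of an array with the others was between 0.979 and 0.996, and Grubbs' test called 2 arrays, a non-carrier array of run C and a carrier array of run E. The motor neuron genes of the label were measured with mean log2 intensities of 10.51 for Isl1, 9.07 for Lhx3, 9.04 for Chat and 8.87 for Mnx1. The glial gene Gfap lay at 6.52 and the endoderm gene Afp at 4.95, but other genes of the glial and endoderm lists used below lay higher. Among these were Slc1a2 at 8.58 and Foxa2 at 7.40. Such levels depend on the probes of each gene, so levels are compared below between arrays and not between genes.

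Carrier serum was compared with non-carrier serum to ask whether the serum of pre-symptomatic mice moved these genes. Of the 10 genes, 3 rose with carrier serum, all by less than 10%: the neurofilament subunits Nefl and Nefh and the axon growth gene Stmn2. None of the 10 fell. The other neurofilament genes Nefm, Ina and Prph had estimates above 0, and Tubb3, Mapt and Gap43 had estimates below 0, none of which passed the test. Over all 19613 genes, 457 (2.33%) were called in the same fit, limma with the run as a block and Benjamini-Hochberg adjustment. The median change of the 10 genes was 0.02 on the log2 scale, beside 0.02 over all genes and -0.01 over all genes but the dim ones. Of the 10, 7 were above 0 and 3 below, and 38.9% of all genes were below 0.

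The 29 carrier arrays had Nefl values from 12.39 through a median of 12.52 to 12.66, and the 30 non-carrier arrays from 12.25 through 12.50 to 12.69 (log2 intensity). Pooled over runs the groups thus overlapped almost completely. With the run as a block the change was 0.06 (SE 0.015, 95% interval 0.03 to 0.09, limma adjusted p-Value 0.025), or 4.12%, and 7 of 9 runs had a higher carrier mean. Nefh, the heavy subunit, lay between 8.41 and 9.21 with a median of 8.77 in carrier arrays and between 8.49 and 9.06 with a median of 8.66 in non-carrier arrays. Its change was 0.09 (SE 0.025, 95% interval 0.04 to 0.14, limma adjusted p-Value 0.037), or 6.39%, with 8 of 9 runs higher. Stmn2 lay between 12.40 and 12.85 with a median of 12.64 in carrier arrays and between 12.39 and 12.80 with a median of 12.58 in non-carrier arrays. It rose by 0.06 (SE 0.017, 95% interval 0.03 to 0.09, limma adjusted p-Value 0.040), or 4.29%, with 8 of 9 runs higher.

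These 3 calls stand close to the threshold. None of the 3 was called without the run as a block (changes of 0.05 for Nefl, 0.09 for Nefh and 0.05 for Stmn2, adjusted p-Value 0.995 each). Nor were they with the genes Olig2, Mnx1, Isl1 and Lhx3 as covariates over all arrays in place of the run (0.03, 0.03 and 0.05, adjusted p-Values 0.503, 0.742 and 0.462). The study corrected for batches with a model of these genes that was fitted on non-carrier assays only, and that correction was not run here. Without run A, B, D, E or the 10-week run, none of the 3 was called, at adjusted p-Values of 0.071 to 0.174, while the changes stayed between 0.05 and 0.10. Centring each array on its median, which shifts all genes of an array by the same amount, also left none of the 3 called (adjusted p-Values 0.084 to 0.153, changes 0.05 to 0.08). Without the run motorneuron Stmn2 alone was lost (adjusted p-Value 0.065) and without run F Nefh alone (0.071). Without the 2 arrays called by Grubbs' test all 3 remained called, with changes of 0.05 for Nefl, 0.08 for Nefh and 0.06 for Stmn2.

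**Figure D1:**
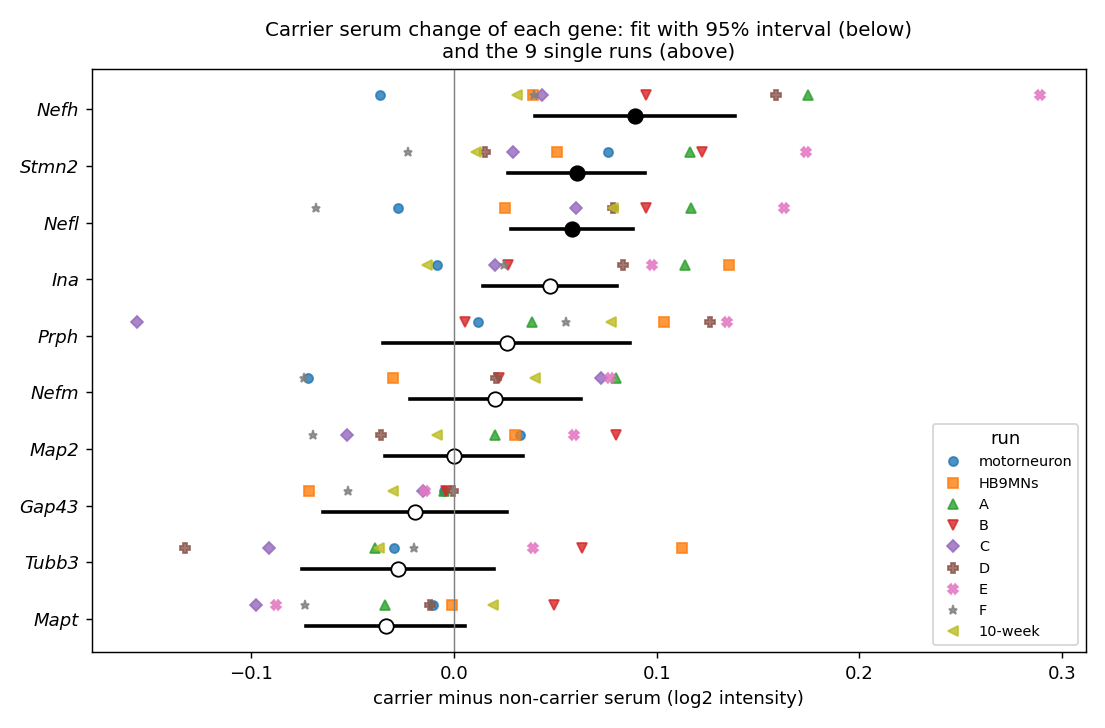
Change with carrier serum (x axis, log2 intensity, carrier minus non-carrier) for each of the 10 genes (y axis). The lower marker of each gene is the fit over all 59 arrays with its 95% interval, filled where the adjusted p-Value is below 0.05, and the coloured markers above it are the 9 single runs. The filled genes are Nefh, Stmn2 and Nefl, whose single runs reach from -0.07 to 0.29, and all 9 runs of Gap43 lie below 0.

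Among the remaining neurofilament genes, Ina had a change of 0.05 (95% interval 0.01 to 0.08, limma adjusted p-Value 0.10), with 7 of 9 runs higher, and was called with array weights (0.05, adjusted p-Value 0.014). Nefm, whose gene neighbours Nefl, had a change of 0.02 (95% interval -0.02 to 0.06, adjusted p-Value 0.577), and its estimate was below 0 in 4 of the 22 alternatives to the fit. Prph had a change of 0.03 (95% interval -0.03 to 0.09, adjusted p-Value 0.627), although 8 of 9 runs were higher. In the exception, run C, its carrier arrays lay between 9.52 and 10.14 and its non-carrier arrays between 9.79 and 10.10. Prph had an SD within runs of 0.12, beside 0.05 for Nefl.

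The tubulin gene Tubb3, the microtubule genes Mapt and Map2 and the growth cone gene Gap43 did not pass the test. Tubb3 had a change of -0.03 (95% interval -0.07 to 0.02, limma adjusted p-Value 0.492) and Mapt of -0.03 (95% interval -0.07 to 0.01, adjusted p-Value 0.311), with 6 and 7 of 9 runs lower. For Map2 the estimate was 0.00 (95% interval -0.03 to 0.03, adjusted p-Value 0.997), an interval of -2.32% to 2.39%. Gap43, a growth cone gene like Stmn2, had a lower carrier mean in 9 of 9 runs but by little in most of them, and its change was -0.02 (95% interval -0.06 to 0.03, adjusted p-Value 0.632). With the genes Olig2, Mnx1, Isl1 and Lhx3 added as covariates beside the run, Gap43 fell, with a change of -0.08 (adjusted p-Value 0.0051), and Nefl (0.04) and Stmn2 (0.03) were no longer called. In that fit 6126 genes were called.

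Within single runs the carrier and non-carrier arrays of Nefl did not overlap in 5 of 9 runs and those of Nefh in 5, those of Stmn2 in 4, those of Ina in 3 and those of Prph in 2. The other 5 genes had 1 such run each. Of all genes, 6.02% were apart in 4 or more of the 9 runs. In run A the Nefl values were 12.39 to 12.44 for carrier and 12.25 to 12.35 for non-carrier arrays, and in run E 12.48 to 12.57 against 12.30 to 12.45. Run D (12.57 to 12.61 against 12.48 to 12.53) and the 10-week run (12.54 to 12.61 against 12.47 to 12.54) ran the same way. Run F turned: its carrier arrays lay between 12.55 and 12.63, below the non-carrier arrays at 12.63 to 12.69, although the nearest arrays of both groups were 12.631 and 12.632. Nefh lay higher with carrier serum in each of its 5 runs apart, HB9MNs, A, B, E and F, with the widest gap in means in run E (0.29), where the array called by Grubbs' test read 9.15 and the other carrier arrays 8.72 and 8.73, against at most 8.62 in non-carrier arrays.

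In run F 7 of the 10 genes had carrier and non-carrier arrays that did not overlap, against 33.2% of all genes, and 6 of the 7 lay lower with carrier serum (Nefl, Nefm, Mapt, Map2, Stmn2, Gap43), Nefh being the exception. In the other 8 runs the genes that did not overlap all lay higher with carrier serum, 17 cases in all, of which 5 in run HB9MNs, where with 2 arrays a group 17.2% of all genes did not overlap and lay higher and 31.7% lower. In the remaining 7 runs between 0.311% (C) and 10.1% (D) of all genes did not overlap and lay higher, and between 0.413% (C) and 8.30% (the 10-week run) lower. In run F 20.1% of all genes lay higher in this way and 13.1% lower. The median change of the 10 genes was -0.04 in run F, beside 0.04 over all genes there, and 0.09 in run E, beside 0.00 over all genes. The difference between runs in the serum change was tested as the interaction of run and serum, which was called for 0 of the 10 genes (limma), beside 0.127% of all genes. Nefl had an unadjusted p-Value of 0.0067 (adjusted 0.400) and was the only one of the 10 with an unadjusted p-Value below 0.05, as were 7.94% of all genes. Taken run by run, no gene of the 10 passed the adjusted test in any of the 9 runs.

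**Figure D2:**
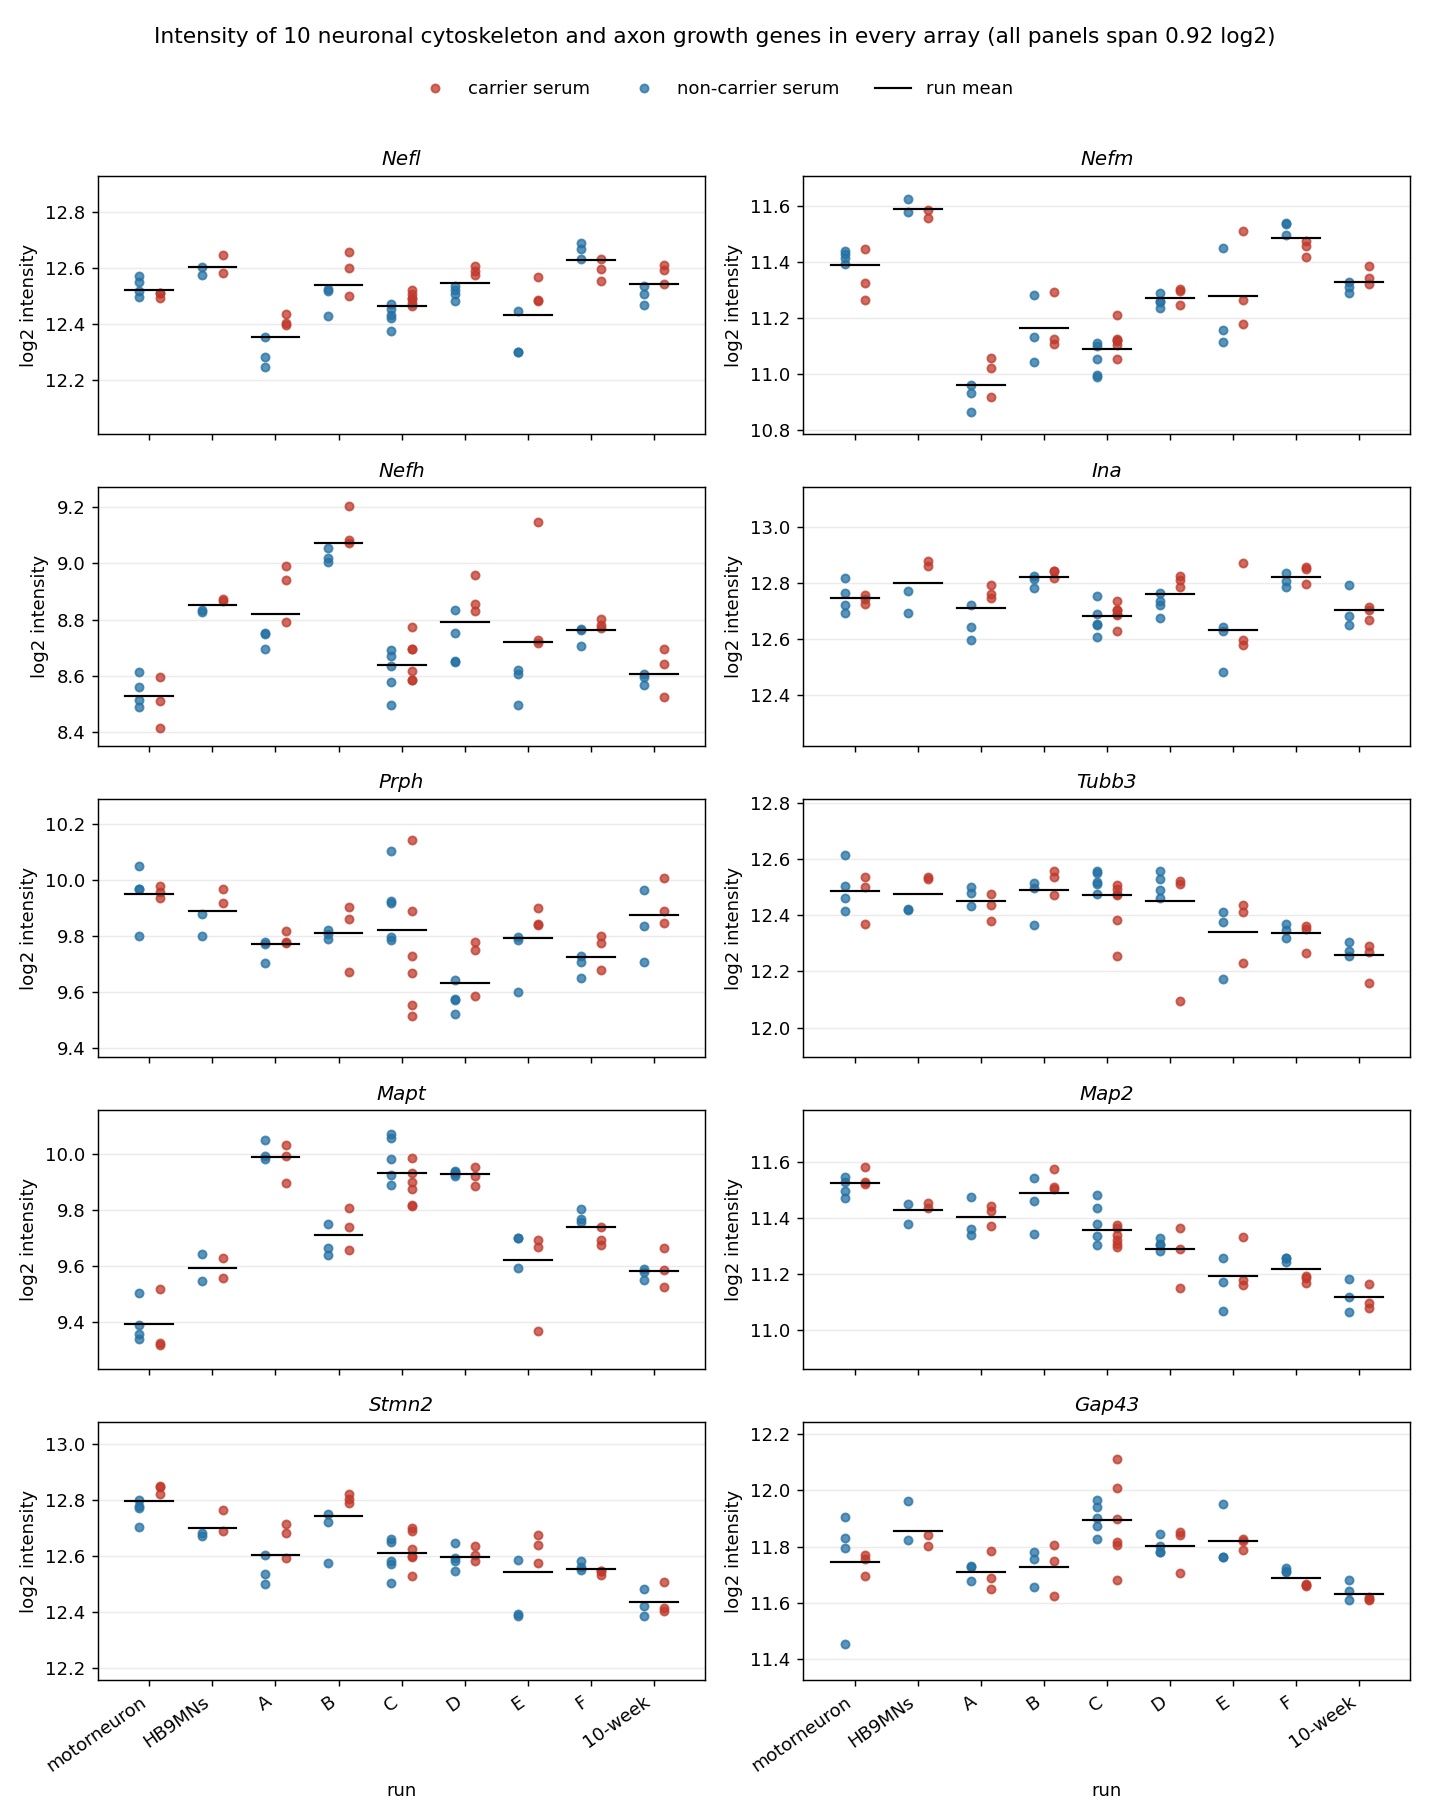
Log2 intensity (y axis, each panel spanning 0.92) of the 10 genes in all 59 arrays, by run (x axis) and serum (red carrier, blue non-carrier). Black lines are run means. The distance between runs is larger than that between sera, as in Mapt, whose run means reach from 9.39 to 9.99, and in Nefm, from 10.96 to 11.59, and Map2, Stmn2 and Tubb3 are lowest in the 10-week run.

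The runs were then compared with each other, to ask how far the genes vary from run to run. All 10 genes differed between the 9 runs (limma F test), as did 94% of all genes. The run explained 89.1% of the variance of Mapt, 85.6% of Nefm and 84.4% of Map2, and between 40.9% (Prph) and 72.5% (Stmn2) of the others, with a median of 68.3% over the 10 genes and 62.5% over all genes. In log2 units, however, the run means of these genes lay close together: the median distance from the lowest to the highest run was 0.34 over the 10 genes and 0.53 over all genes. The 10 genes were bright, with mean levels between percentile 75.3 (Nefh) and 99.8 (Ina) of all genes, and were not compared with genes of like level. From run to run, the distance differed between the 10 genes. It was widest for Nefm at 0.63 (1.54-fold) and narrowest for Ina at 0.19 (1.14-fold). Embryoid bodies are mixed cultures, so fewer neurons in a run and less of a transcript per neuron cannot be told apart.

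The neurofilament genes did not share 1 order of runs. Nefl was lowest in run A at 12.35 and highest in run F at 12.63, and Nefm was lowest in A at 10.96 and highest in HB9MNs at 11.59, followed by F at 11.49. Nefh was lowest in motorneuron at 8.53 and highest in B at 9.07, 0.22 above the next run (limma adjusted p-Value 0.0035). Ina went from 12.63 in E to 12.82 in F, and Prph from 9.63 in D to 9.95 in motorneuron. For Ina and Prph no 2 runs next to each other in this order differed (limma, 8 neighbouring pairs each), whereas for Nefl run A was below E by 0.08 (adjusted p-Value 0.041) and C below motorneuron by 0.06 (0.032), and for Nefm A was below C by 0.13 (0.019) and motorneuron below F by 0.10 (0.049). Of the 36 pairs of runs, 29 differed for Nefm, 23 for Nefl, 21 for Nefh, 14 for Ina and 11 for Prph, beside a median of 16 over all genes.

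The microtubule genes fell into a different order. Map2 was lowest in the 10-week run at 11.12, then E at 11.19 and F at 11.22, and highest in B at 11.49 and motorneuron at 11.52. Stmn2 and Tubb3 were also lowest in the 10-week run, at 12.44 and 12.26, with E and F next, and highest in motorneuron (12.80) and B (12.49) respectively. Mapt went the other way at the upper end, from 9.39 in motorneuron to 9.93 in C and 9.99 in A. Gap43 was lowest in the 10-week run at 11.63 and highest in C at 11.89. Between neighbours, Mapt was lower in motorneuron than in the 10-week run by 0.19 and in F than in D by 0.19 (limma adjusted p-Values 5.9e-05 and 0.00042), and Stmn2 was lower in the 10-week run than in E by 0.11 (0.019). No neighbouring runs differed for Tubb3, Map2 or Gap43. The pairs of runs that differed were 27 of 36 for Mapt, 25 for Map2, 21 for Stmn2, 13 for Tubb3 and 12 for Gap43.

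Each run was set against the mean of the other 8 (limma), which gave 45 calls among the 90 combinations of gene and run, 20 higher and 25 lower. In the 10-week run 0 genes were higher and 6 lower, namely Map2 (-0.25), Stmn2 (-0.21), Tubb3 (-0.18), Nefh (-0.17), Mapt (-0.15) and Gap43 (-0.15), while 14.1% of all genes were higher and 20.5% lower. In run E, too, 0 genes were higher and 6 lower, Map2 by -0.16, Ina by -0.12 and Mapt by -0.11, and Nefl, Stmn2 and Tubb3 by -0.09 each. Of all genes, 22.9% were higher and 40.3% lower in run E. With each array centred on its median the 6 genes of the 10-week run kept their calls. With quantile normalization Tubb3 lost its call (-0.07) and Nefm (0.12) and Nefl (0.10) were called higher, which gave 2 higher and 5 lower. In run E centring kept the call of Map2 alone, with the other 5 still below 0, whereas quantile normalization kept Map2 and Mapt and turned the sign of Nefl, Ina, Tubb3 and Stmn2 (to between 0.01 and 0.04), and both called Gap43 higher (0.13 and 0.14). Over all 90 combinations, centring kept 30 of the 45 calls, lost 15 and added 5, with 11 signs turned, and quantile normalization kept 33, lost 12 and added 8, with 12 signs turned, 4 of them among the calls.

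In run F Nefm (0.23), Nefl (0.13) and Ina (0.09) were higher and Map2 (-0.13) and Stmn2 (-0.08) lower, with 14.5% of all genes higher and 17.2% lower. Of the neurofilament genes Nefh (0.01) and Prph (-0.09) were not called there. With centring Ina and Stmn2 lost their calls, and with quantile normalization Map2 (-0.05) and Stmn2 (-0.04) did. In run A Nefm (-0.36) and Nefl (-0.18) were lower and Mapt (0.30) and Map2 (0.07) higher, Map2 not being called with centring, while 15.2% of all genes were higher and 15.7% lower. In run C Mapt (0.24) and Gap43 (0.15) were higher and Nefm (-0.22), Nefh (-0.14), Ina (-0.07) and Nefl (-0.06) lower, with 18% of all genes higher and 29.1% lower. In run C the calls of Nefl (-0.02 with centring, -0.05 with quantile normalization) were lost under both scalings and that of Ina with centring, which added Tubb3 (0.10) as higher.

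In run HB9MNs Nefm (0.34), Map2 (0.10), Nefl (0.10) and Stmn2 (0.09) were higher and Mapt (-0.14) lower, with 14.6% of all genes higher and 12.5% lower. Stmn2 lost its call with centring, and with quantile normalization Map2 (0.00), Nefl (0.05) and Stmn2 (0.03) did, which left Nefm (0.25) as the 1 gene higher. In run B Nefh (0.36), Map2 (0.17), Stmn2 (0.14) and Ina (0.09) were higher and Nefm (-0.13) lower, with 16.8% of all genes higher and 16.4% lower, and Ina was not called with quantile normalization (0.04). Run D had Mapt (0.23) higher and Prph (-0.20) lower, with 11.4% of all genes higher and 18% lower. In the run motorneuron 56.2% of all genes were higher and 24.6% lower, and the median of all genes was 0.18 above the other runs. There Map2 (0.21), Stmn2 (0.20), Prph (0.16) and Nefm (0.12) were higher and Mapt (-0.37) and Nefh (-0.25) lower as deposited. With each array centred on its median 0 genes were higher in this run and 5 lower, Mapt by -0.52, Nefh by -0.40, Gap43 by -0.17, Ina by -0.14 and Nefl by -0.13, and the sign of Nefm turned to -0.03. With quantile normalization, however, 4 genes were higher, Prph by 0.17, Map2 by 0.16, Nefm by 0.08 and Stmn2 by 0.05, and 6 lower.

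**Figure D3:**
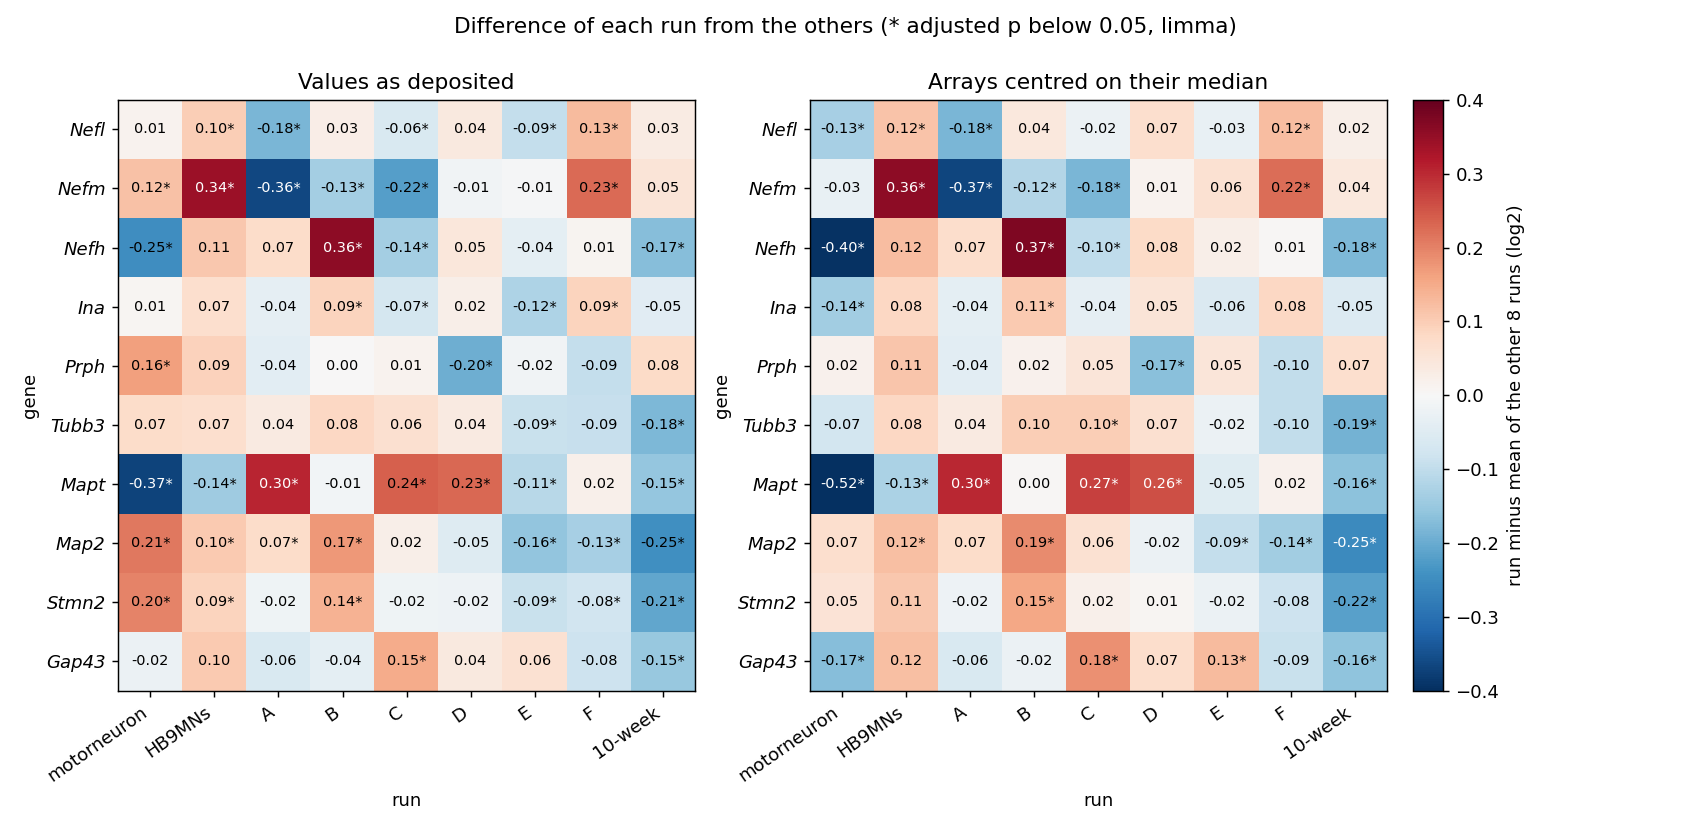
Difference of each run (columns) from the mean of the other 8 runs (log2, colour and printed value) for the 10 genes (rows), from the values as deposited (left) and with each array centred on its median (right). Asterisks mark adjusted p-Values below 0.05, 45 on the left and 35 on the right, of which 30 are shared. The 10-week column holds 6 negative values with asterisks in both panels, whereas the motorneuron column loses its 4 red calls on the right.

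Run means of the genes were compared in pairs over the 9 runs, with exact permutation tests and adjustment over the 45 pairs. In 3 pairs the relation passed the adjusted threshold, and all 3 were among the tubulin gene Tubb3, the microtubule gene Map2 and the tubulin-binding gene Stmn2. Map2 and Stmn2 had a Pearson's r of 0.955 (exact p-Value 3.6e-05, adjusted 0.0016) and a Spearman's rho of 0.983 (exact p-Value 5e-05, adjusted 0.0022), and r was 0.913 without the 2 runs farthest from the median of Map2, the 10-week run and motorneuron. Tubb3 and Map2 had r = 0.919 (exact p-Value 0.00017, adjusted 0.0038) and rho = 0.950 (exact p-Value 0.00035, adjusted 0.0053), with r = 0.853 without the 10-week run and F. Tubb3 and Stmn2 had r = 0.864 (exact p-Value 0.0025, adjusted 0.037) and rho = 0.967 (exact p-Value 0.00017, adjusted 0.0037), with r = 0.726 without the same 2 runs. With each array centred on its median the pair of Map2 and Stmn2 remained (r = 0.942, exact permutation, adjusted 0.0035), and with quantile normalization 0 of the 45 pairs passed, r of Map2 and Stmn2 being 0.671. The neighbouring genes Nefl and Nefm had r = 0.834 (exact p-Value 0.0052, adjusted 0.058). Over all 45 pairs the median r was 0.11 and the lowest -0.74, between Prph and Mapt (exact p-Value 0.021, adjusted 0.187).

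The same run means were set against those of Sox2, a gene of neural progenitors, Olig2, a gene of motor neuron progenitors, and Isl1, a gene of newly formed motor neurons, in 30 relations. None passed the adjusted threshold (exact permutation tests, smallest adjusted p-Value 0.123), and 3 had an unadjusted p-Value below 0.05. These 3 were Sox2 against Map2 (r = -0.838, rho = -0.850, exact p-Value 0.0061), Tubb3 (r = -0.802, rho = -0.800, exact p-Value 0.0088) and Stmn2 (r = -0.790, rho = -0.833, exact p-Value 0.012). Without the 2 farthest runs r fell in size to -0.657, -0.479 and -0.492. With each array centred on its median r with Sox2 was -0.730 for Map2, -0.418 for Tubb3 and -0.648 for Stmn2. With quantile normalization it was -0.724 for Map2, -0.007 for Tubb3 and -0.667 for Stmn2. Sox2 had its highest run means in the 10-week run and in F (10.93) and its lowest in motorneuron at 9.96. Olig2 went the other way, with r of 0.544 with Map2, 0.635 with Tubb3 and 0.513 with Stmn2 (exact permutation, adjusted p-Value 0.423 each). The progenitor genes Olig2 and Pax6 were lowest in the 10-week run and highest in motorneuron. Of the 14 progenitor and cell cycle genes measured, 9 were higher and 2 lower in the 10-week run and 8 higher and 2 lower in F. In E 7 were higher and 4 lower. Of all genes, 14.1% were higher in the 10-week run, 14.5% in F and 22.9% in E. In run B, where Tubb3 was highest, 6 of the list were higher and 0 lower, beside 16.8% and 16.4% of all genes. The mean level of this list lay between 9.06 in run A and 9.36 in the 10-week run, with 9.34 in B, 9.33 in F and 9.32 in E. Whether the share of progenitors had a part in the levels of Map2, Stmn2 and Tubb3 was not tested. Of the 10 interneuron genes, 10 were lower in E, 8 in the 10-week run and 3 in F, where 1 was higher, beside 40.3%, 20.5% and 17.2% of all genes lower in these runs, and the mean level of this list lay between 6.99 in E and 7.76 in A.

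**Figure D4:**
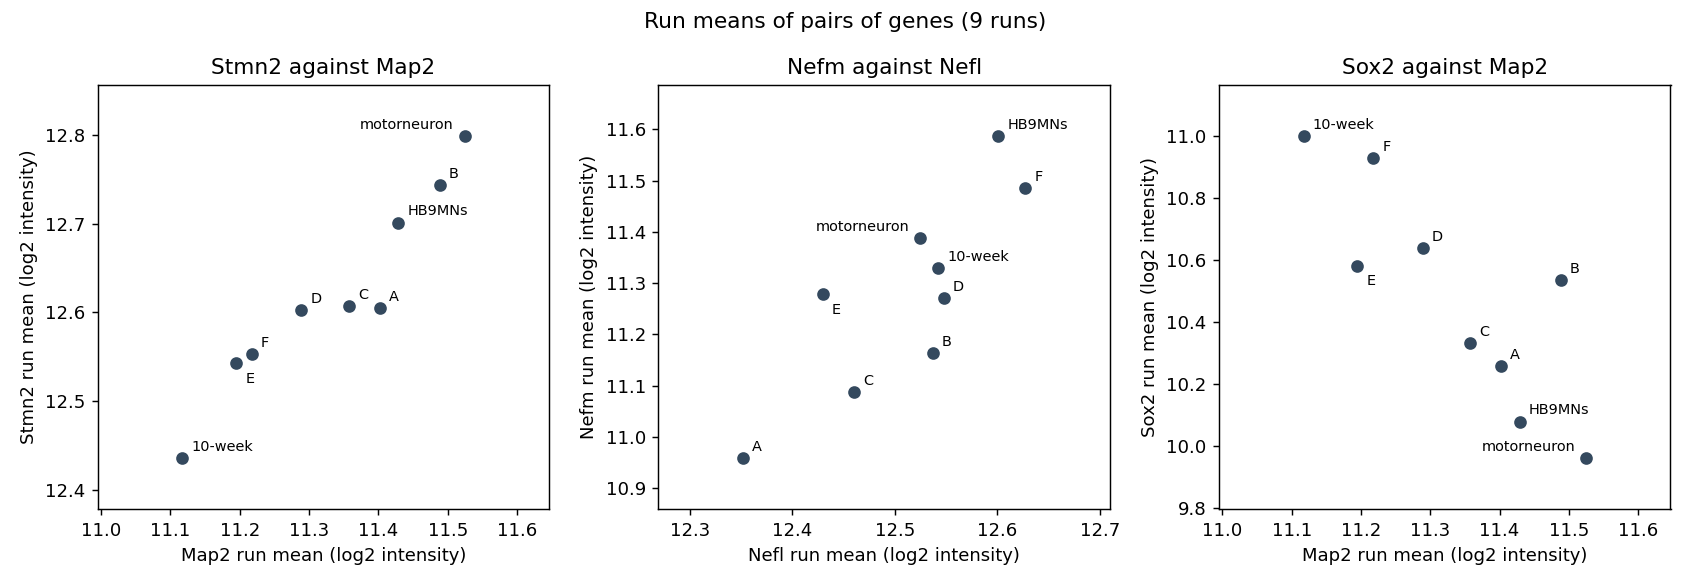
Run means (log2 intensity on both axes, adjusted for serum, 9 runs) of Stmn2 against Map2, Nefm against Nefl and Sox2 against Map2. The left panel rises over the whole range (r = 0.955), the middle one rises with run A at the lower end (r = 0.834), and the right one falls (r = -0.838).

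Within runs, after removal of run and serum means, 17 of the 45 pairs of genes were related over the 59 arrays (permutation within runs, adjusted p-Value below 0.05), all with a positive r. Map2 with Stmn2 had the highest r at 0.720 (rho = 0.714), followed by Nefl with Nefm at 0.650 (rho = 0.590), Nefl with Stmn2 at 0.633 (rho = 0.593) and Nefm with Map2 at 0.610 (rho = 0.558), and each of these 4 had an adjusted p-Value between 0.00015 and 0.0009, the permutations giving no p-Value below 1e-05. Without the 2 farthest arrays these 4 values were 0.686, 0.637, 0.591 and 0.535. The count depended on the scaling: 32 of the 45 passed with each array centred on its median and 9 with quantile normalization. Whether the brightness of the array had a part in these relations was not tested. As a description over 59 arrays, the genes most like each of the 10 were in part of the same kind. Dcx, a microtubule protein of migrating neurons, was most like Ina (r = 0.781), Tubb2a, another beta-tubulin, most like Tubb3 (r = 0.810), and Nedd4 most like Nefm (r = 0.746), with Tuba1c among the next (r = 0.676). Slc25a3 was most like Nefl (r = 0.694), Supt5h most like Nefh (r = 0.685), Dlgap4 most like Mapt (r = 0.767), Eif4g2 most like Map2 (r = 0.833), Hnrnpk most like Stmn2 (r = 0.820) and Hsd17b12 most like Gap43 (r = 0.850). The gene most like Prph was one listed only as X6330403K07Rik (r = 0.752). Prph stood farthest from the others, its nearest among the 10 genes being Gap43 at r = 0.236. Ranked among all genes by r, the nearest of the 10 came 2nd for Nefl, 9th for Nefm and 10th for Map2 and for Stmn2. It came 79th for Nefh and 97th for Ina, but only 481st for Tubb3, 770th for Gap43, 1111th for Mapt and 2763rd for Prph.

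Other genes of the cytoskeleton and of axons were read from lists, in the same fits over all genes. Of 12 further tubulin isotypes, 0 were called with carrier serum, with Tuba1a, the main neuronal alpha-tubulin, nearest at 0.04 (limma adjusted p-Value 0.111), and all 12 differed between runs. In the 10-week run 0 of the 12 were higher and 6 lower, and in E 0 higher and 10 lower, beside 20.5% and 40.3% of all genes lower in these runs. Tuba8 and Tubb1 had the widest ranges of run means at 0.90 and 0.87, both lowest in E and highest in motorneuron. Of 13 microtubule-associated proteins and stathmins, Stmn1 fell with carrier serum by 0.09 (SE 0.024, limma adjusted p-Value 0.031), with 9 of 9 runs lower, and the other 12 were not called. Stmn1 is the stathmin of dividing and immature cells. Over runs, Map7 ranged by 1.48 and Stmn4 by 0.77.

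Of 17 growth cone and axon adhesion genes 0 were called with carrier serum, and L1cam was nearest at -0.06 (limma adjusted p-Value 0.179). Estimates below 0 were found for 13 of the 17, beside 38.9% of all genes. Cntn2, which is made early in the axons of commissural and motor neurons, ranged over runs by 1.17, from A to the 10-week run, and Robo2, a receptor in axon guidance, by 0.97 in the opposite direction, from the 10-week run to A. Of 17 genes of axonal transport 0 were called, and 12 had estimates below 0, beside the same 38.9% of all genes. Mapk8ip1, an adaptor of kinesin cargo, was nearest at -0.07 (adjusted p-Value 0.071), and the dynactin subunit Dctn2 and the dynein heavy chain Dync1h1 had the widest ranges over runs at 1.01 and 0.60, both lowest in motorneuron. Of 12 other intermediate filaments Krt8, a keratin of simple epithelia, rose by 0.14 (SE 0.035, adjusted p-Value 0.024, 8 of 9 runs higher), and Krt19 and Lmnb1 ranged by 1.07 and 0.92.

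Of 16 pan-neuronal and synaptic genes Snap25, a protein of synaptic vesicle fusion, rose by 0.07 (SE 0.018, limma adjusted p-Value 0.017, 8 of 9 runs higher), and the vesicular glutamate transporter Slc17a6 and the enolase Eno2 ranged over runs by 1.86 and 1.44. Of 10 motor neuron genes Slc5a7, the choline transporter of cholinergic endings, rose by 0.15 (SE 0.042, adjusted p-Value 0.041, 8 of 9 runs higher), whereas Chat, the enzyme that makes acetylcholine, had a change of -0.02 (adjusted p-Value 0.533). Chat and Isl2 had the widest ranges over runs among them, at 0.81 and 0.80. Of the lists of other cells the cultures could hold, 1 of 10 glial genes (Slc1a2, -0.07, adjusted p-Value 0.031) and 1 of 10 sensory neuron and neural crest genes (Ntrk2, -0.08, adjusted p-Value 0.031) fell, both in 9 of 9 runs. None of 14 progenitor and cell cycle, 10 interneuron, 7 pluripotency or 13 endoderm and mesoderm genes were called with carrier serum, the nearest being Olig2 (-0.09, adjusted p-Value 0.094), Lhx1 (-0.09, 0.066), Nanog (0.11, 0.171) and T (0.14, 0.099). Over all lists, 3 of 161 entries were called higher and 3 lower, genes that stand in more than 1 list counting once for each, which is 3.73% beside the 2.33% of all genes.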

How the data were processed

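Gene expression was measured on Affymetrix Mouse Exon ST arrays in 59 samples. The deposited values are linear intensities for 19613 genes named by symbol, made by the authors with RMA as implemented in aroma.affymetrix, a gene's value being its exon mean, and outlier arrays removed by Grubbs' test beforehand. A later correction by 4 motor neuron genes was not seen in the values. Log2 intensities were used with a pseudocount of 0 and no filter.

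Carrier and non-carrier serum were compared with limma 3.58.1 in R 4.3.3 (lmFit, eBayes), with the run as a block and Benjamini-Hochberg adjustment over all genes at a threshold of 0.05. The same tool gave the F test over 9 runs, each run against the mean of the others, 36 pairs of runs and the interaction of run and serum. Correlations over runs were tested with exact permutation (SciPy, Python), those within runs with permutations of arrays within runs. Procedures were tested on simulated data. The number of arrays limits precision. Named genes of a list are the 2 with the widest range of run means, the 1 with the smallest carrier p-Value and those called. The genes and lists were chosen with earlier results of these data known. Alternatives covered the block, covariates, scaling, pseudocount, dim genes, variance model, weights and left-out arrays or runs. Same-numbered arrays of 3 runs (8 pairs) correlated between -0.135 and 0.260, with 2 pairs above 0.1, so numbers were not taken as pairs.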

Additional observations from a re-analysis of the deposited data

Results flagged for a closer look

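The serum change of Nefl and of Stmn2 had opposite signs in different runs with carrier and non-carrier arrays that did not overlap. For Nefl the carrier mean was higher by 0.12 in run A, 0.08 (0.0785) in run D, 0.16 in run E and 0.08 (0.0786) in the 10-week run, and lower in run F, at -0.07 (-0.0680). For Stmn2 it was higher by 0.08 in run motorneuron (0.0761), 0.05 in run HB9MNs (0.0507) and 0.12 in run B, and lower in run F, at -0.02 (-0.0226). This Stmn2 value of run F had an SE of 0.050, and the nearest arrays of both groups read 12.547 and 12.551. Of all genes, between 4.40% (motorneuron) and 48.9% (HB9MNs, with 2 arrays a group) did not overlap in the runs named here, and 33.2% in run F. The test of the difference between runs, the interaction of run and serum over all 9 runs in limma, had an adjusted p-Value of 0.400 for Nefl (unadjusted 0.0067) and 0.732 for Stmn2 (unadjusted 0.131). Single runs against each other were not tested. Sets of 4 to 10 arrays of 1 gene in 1 run and serum were also searched for a value far from the rest, and 0 of 40 sets held one. Only the non-carrier arrays of motorneuron and D and both sera of C were large enough, and all smaller sets were left unsearched. Among these, Tubb3 read 12.10 in carrier array 130 of run D, beside 12.51 and 12.52 in the other carrier arrays of that run.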

How the results depend on the processing

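Of the 3 genes called with carrier serum (Nefl, Nefh and Stmn2), 0 were called without the run as a block, with 4 motor neuron genes in place of the run, with each array centred on its median, or without run A, B, D, E or the 10-week run. Replicate numbers shared by 16 arrays of 3 runs were not taken to pair them, and with the replicate block on these arrays 0 of the 10 genes were called, as with the run as a block on the same 16 arrays, a setting chosen after seeing the data. The cause of these losses was not tested, except that the last fits and those without a run hold fewer arrays.

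The estimate of Map2, near 0 throughout, turned its sign to -0.0039 without a block, -0.0001 (-0.00013) with run C parted, -0.0190 with 4 genes beside the run, -0.0072 with centring, -0.0026 with array weights, -0.0080 without the arrays called by Grubbs' test, and -0.0041, -0.0020, -0.0022, -0.0089 and -0.0066 without the runs motorneuron, HB9MNs, A, B and E. Nefm turned to -0.0199 with the replicate block and with the run as a block on the same 16 arrays, to -0.0448 with 4 genes in place of the run and to -0.0215 with them beside it. Mapt turned to 0.0149 with 4 genes in place of the run.

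Of all genes, limma called 457 with carrier serum in the reported fit (323 of them lower), 444 with quantile normalization (264 of them lower), 0 without a block (805 at an unadjusted p-Value below 0.05), 0 in the fits of 16 arrays (1586 with the replicate block and 1640 with the run), 54 with 4 genes in place of the run, 6126 with them beside it, 655 without dim genes, 2803 with array weights, 716 without the arrays called by Grubbs' test, and, with a run left out, between 0.540% (without D) and 8.16% (without C) of all genes, beside 2.33% in the reported fit. Over the 9 runs, 3 pairs of genes passed as deposited, 1 with centring and 0 with quantile normalization, and within runs 17, 32 and 9. The 10 genes differed between runs in each alternative run, except that 9 did with 4 genes beside the run, and 0 had an interaction of run and serum.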
